A study of Mus musculus with 6 samples.

Results

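The claudins, the other membrane proteins of the tight junction, the scaffolds beneath them and the apical polarity proteins were followed in mouse endosteal mesenchymal stromal cells by bulk RNA sequencing. The cells are a connective tissue population found where bone meets marrow. The 31 genes were fixed by name and matched by symbol to the deposited table, which holds 55471 gene identifiers. They comprise 18 claudins, 4 other membrane proteins of the junction, 4 scaffolds and 5 polarity proteins. Polyadenylated RNA of C57BL/6J mice was measured in 3 libraries labelled Bap1 cKO (Prx1-cre;Bap1fl/fl) and 3 labelled Bap1 WT (Bap1fl/fl). Both groups carry the floxed Bap1 alleles and differ by the Cre transgene, whose Prx1 promoter acts in limb mesenchyme and its descendants. Bap1 is a deubiquitinase that removes ubiquitin from histone H2A. Age and sex are not among the labels used here. Whether each library is a different mouse is not stated either, so a p-value speaks only of the spread among these samples, which may be technical.

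Tight junctions seal the space between neighbouring epithelial or endothelial cells. Claudins form the strands and set which ions pass, occludin and tricellulin join them in the membrane, and ZO proteins and cingulins tie the strands to actin. The Crumbs, PAR and Scribble complexes place the junction at the border of the apical and lateral membrane. Mesenchymal stromal cells do not form such a seal, but several of these proteins also serve adherens junctions, cell migration and cell division.

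Values are RPKM, reads per kilobase of gene scaled to the mapped reads of the library, so levels can be compared between genes. Read counts were not used. Sequencing depth, inferred from the spacing of low RPKM values, was about 13.5 to 23 megafragments (read pairs) in the cKO libraries and 13.5 to 15.4 megafragments in the WT libraries. A single fragment on 1 kilobase of transcript was then worth 0.0435 to 0.0741 RPKM. Bap1 itself had 28.27, 25.16 and 22.99 RPKM in the cKO libraries and 22.8, 22.72 and 24.01 RPKM in the WT libraries. An RPKM over the whole gene counts a transcript without the floxed exons along with an intact one, so this value does not check the labels. Replicate 3 of the cKO group stood closer to the WT group than its fellows did, with a Pearson r across genes of 0.95 to 0.951 against 0.932 to 0.934. Genes are not independent replicates, and these r values carry no test.

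The labelled cell type was checked against its markers. The limb mesenchyme factor Prrx1 had 72.24, 39.46 and 45.51 RPKM in the cKO libraries and 75.02, 83.75 and 68.16 RPKM in the WT libraries, while the stromal marker Lepr reached at most 0.14 RPKM. The summed level of 10 stromal markers was 112 to 217 RPKM in the cKO libraries and 2181 to 2313 RPKM in the WT libraries. Col1a2, Col1a1 and Cxcl12 carried most of the WT sum and were lower in each cKO library, as were Pdgfrb, Runx2, Thy1 and Eng. Pdgfra went the other way, with 19.56, 9.72 and 11.06 RPKM in the cKO libraries and 7.51, 6.86 and 8.31 RPKM in the WT libraries. The 14 kidney tubule markers summed to 126 to 248 RPKM in the cKO libraries and 0.44 to 0.82 RPKM in the WT libraries. Nearly all of the cKO sum came from the transcription factor Pax8, which had 0.12 to 0.21 RPKM in the WT libraries. Of these 14, 4 reached 1 RPKM in some cKO library and none of them did in a WT library, while 5 were at 0 in every library, among them Slc34a1, Umod and Calb1. The 10 epithelial markers summed to 8.69 to 13.3 RPKM in the cKO libraries and 15.7 to 16.8 RPKM in the WT libraries, and their members differed in direction. Krt19 carried most of the WT sum, with 1.67, 1.74 and 5.79 RPKM in the cKO libraries and 13.28, 11.73 and 13.73 RPKM in the WT libraries, and Krt8 was at 0 in each cKO library and at 0.66 to 0.79 RPKM in the WT libraries. The splicing factor Esrp2 had 3.15, 4.29 and 1.21 RPKM in the cKO libraries and 0.06, 0.07 and 0 RPKM in the WT libraries, and Krt7 had 8, 3.45 and 1.35 RPKM in the cKO libraries and 2.11, 2.96 and 2.17 RPKM in the WT libraries. Epcam had 0.29, 0.22 and 0.17 RPKM in the cKO libraries and E-cadherin (Cdh1) 0, 0.12 and 0.01 RPKM, and both were at 0 in each WT library. Endothelial markers summed to at most 0.81 RPKM in the cKO libraries and 0.41 RPKM in the WT libraries, haematopoietic markers to at most 7.61 RPKM in cKO and 3.21 RPKM in WT, and Schwann cell and glial markers to at most 2.05 RPKM in cKO and 3.09 RPKM in WT. The part of these marker differences in the results below was not tested. In bulk samples fewer cells of a type and less RNA per cell cannot be told apart.

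Taking at least 1 RPKM in all 3 libraries of a group as expressed, 8 of the 31 genes were expressed in the cKO group and 7 in the WT group, and 6 of them in both. The 6 shared genes were the claudin Cldn12, the adhesion molecule F11r, the scaffolds Tjp1 and Cgnl1 and the polarity genes Pard3 and Llgl2. Cldn2 and Patj met the limit in the cKO group alone, and Cldn15 in the WT group alone. In 22 of the 31 genes, 15 of them claudins, no library reached 1 RPKM. By level, the cKO group was led by Cldn12 (23.6 ± 6.33 RPKM, mean ± SD, n = 3 here and below), Llgl2 (15.0 ± 7.37), Pard3 (14.8 ± 1.82) and Tjp1 (14.7 ± 1.74), none of which differed from the next beyond their spread. Patj (6.68 ± 2.33) and F11r (6.54 ± 3.99) followed, also within their spread, then Cgnl1 (3.01 ± 0.593) and Cldn2 (1.34 ± 0.157). The WT group was led by Cgnl1 (26.4 ± 0.62 RPKM), then Cldn12 (22.8 ± 0.994) and Tjp1 (22.6 ± 1.76), which stood within their spread, and Pard3 (15.3 ± 0.796). Far below came F11r (4.35 ± 0.645), Llgl2 (2.51 ± 0.367), Cldn15 (1.70 ± 0.127) and Patj (1.23 ± 0.614), of which Cldn15 and Patj overlapped in spread.

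**Figure D1:**
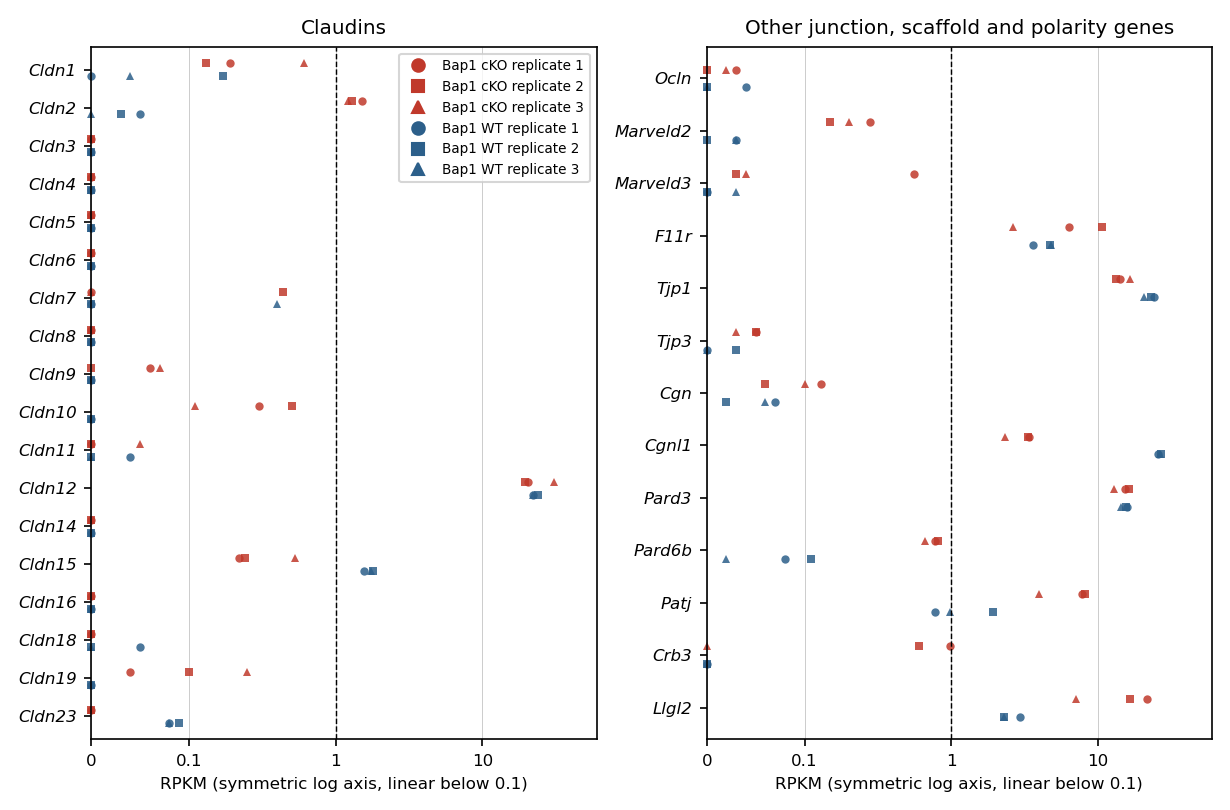
RPKM of the 31 genes in each library, claudins on the left and the other genes on the right, with the cKO libraries (red) above the WT libraries (blue) in each row, symbols for replicate numbers and a dashed line at 1 RPKM. Most claudins lie at or near 0 in both groups, and Cldn12 lies near 20 to 30 RPKM in both. The groups lie apart for Cldn2, Cldn15, Tjp1, Cgnl1, Pard6b, Patj and Llgl2. At trace levels they also lie apart for Cldn10, Cldn19, Cldn23 and Marveld2. For Cldn23 this rests on about 2 fragments per WT library, and for Cldn19 on about 2.1 in cKO replicate 1. Such levels cannot be told from 0.

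The regulators Snai1, Snai2, Zeb1 and Zeb2 described below bind the E-box CAGGTG, which other factors also bind, and are known to repress epithelial junction genes, so the stretch around the transcription start was read for members whose levels frame the findings. Patj and Pard6b were higher in the cKO libraries and hold the E-box, Cldn2 was higher and does not, Cgnl1 was lower and does not, and Cldn4 was at 0 throughout and does. The sequences run 5′ to 3′ from 250 bases before to 50 after the RefSeq start in GRCm38.p6, with the E-box in capitals, CAGGTG where it lies on the printed strand and CACCTG where it lies on the other.
Patj (chr4:98395576-98395875, plus strand): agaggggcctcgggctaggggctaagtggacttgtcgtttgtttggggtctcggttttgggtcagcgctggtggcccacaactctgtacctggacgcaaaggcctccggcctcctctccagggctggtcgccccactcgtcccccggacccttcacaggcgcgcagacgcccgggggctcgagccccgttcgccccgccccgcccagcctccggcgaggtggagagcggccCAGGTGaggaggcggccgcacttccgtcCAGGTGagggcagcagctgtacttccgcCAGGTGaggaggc
Pard6b (chr2:168080754-168081053, plus strand): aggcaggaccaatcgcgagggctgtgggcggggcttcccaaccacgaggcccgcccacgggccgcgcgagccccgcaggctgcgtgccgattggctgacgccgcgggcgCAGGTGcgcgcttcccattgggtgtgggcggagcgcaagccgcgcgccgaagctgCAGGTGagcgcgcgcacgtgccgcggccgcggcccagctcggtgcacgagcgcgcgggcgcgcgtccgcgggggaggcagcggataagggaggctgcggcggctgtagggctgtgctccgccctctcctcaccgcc
Cldn2 (chrX:139800558-139800857, plus strand): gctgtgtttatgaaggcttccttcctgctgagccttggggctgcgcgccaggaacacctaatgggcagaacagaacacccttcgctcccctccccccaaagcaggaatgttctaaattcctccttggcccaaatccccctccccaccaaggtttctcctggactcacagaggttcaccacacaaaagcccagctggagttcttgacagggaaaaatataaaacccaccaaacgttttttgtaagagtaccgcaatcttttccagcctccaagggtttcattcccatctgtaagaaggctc
Cgnl1 (chr9:71771553-71771852, minus strand): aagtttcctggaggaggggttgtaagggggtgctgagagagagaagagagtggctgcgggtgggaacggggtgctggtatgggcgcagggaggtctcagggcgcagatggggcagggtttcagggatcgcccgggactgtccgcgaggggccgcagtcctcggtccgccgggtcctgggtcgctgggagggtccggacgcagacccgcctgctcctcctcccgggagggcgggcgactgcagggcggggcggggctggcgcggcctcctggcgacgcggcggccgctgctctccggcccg
Cldn4 (chr5:134946885-134947184, minus strand): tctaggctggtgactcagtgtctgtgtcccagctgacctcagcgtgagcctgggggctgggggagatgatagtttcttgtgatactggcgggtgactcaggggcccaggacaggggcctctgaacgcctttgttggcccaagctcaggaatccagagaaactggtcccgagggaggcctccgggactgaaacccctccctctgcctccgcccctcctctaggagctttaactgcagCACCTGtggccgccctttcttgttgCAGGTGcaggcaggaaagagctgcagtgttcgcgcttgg

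A RefSeq window existed for 26 of the 31 genes, and where a gene had several, the one nearest to its GENCODE start was used. Most lay within 163 bases of that start, but the window of Tjp1 lay 156537 bases from it, that of Crb3 3096 and that of Cldn15 1253, and these windows enter the shares and medians below. CAGGTG, read on both strands, stood in 10 of the 26 windows, or 38.5%, against 20.2% of all 32851 windows in the table. Patj held 3 copies and Pard6b 2. Whether the E-box went with the differences between the groups was not tested. Among the members called below at the limit of 1 RPKM, Patj alone held the E-box. Cldn15, Tjp1 and Cgnl1 did not, and Llgl2 had no window. Of the members called higher only at the limit of 0.1 RPKM, Pard6b and Marveld2 held it, and Cldn2 and Cldn10 did not. Cldn3, Cldn4, Cldn6, Ocln and Tjp3, at 0 or traces in both groups, also held it. A match is a description of the letters and not a bound site. The windows also differed in CpG content: the median was 25 CpG in the 7 windows of members with a mean of at least 1 RPKM and 9.5 CpG in the 18 windows of members under 1 RPKM in every library, against 7 over all windows. The remaining window is that of Cldn2, with 5 CpG. The 2 sets overlapped, with 7 to 42 CpG in the expressed members and 3 to 47 CpG in the low ones.

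Among the claudins, Cldn12 carried nearly all of the signal in both groups. Cldn12 is an atypical claudin without the usual scaffold-binding tail and is known for paracellular calcium permeability. Its level was 20.37, 19.45 and 30.84 RPKM in the cKO libraries and 22.21, 23.96 and 22.27 RPKM in the WT libraries. Replicates 1 and 2 of the cKO group lay below every WT library and replicate 3 above every one. The difference in log2(RPKM + 1) was 0.02 ± 0.17 (cKO minus WT, SE). It did not pass the test (limma, Benjamini-Hochberg adjusted p = 0.947), which does not show that the levels are equal. Cldn12 made up 87.8 to 91.6% of the summed claudin RPKM in the cKO libraries and 90.7 to 92.6% in the WT libraries.

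The sum over the 18 claudins was 22.7, 22.15 and 33.68 RPKM in the cKO libraries and 23.99, 26.05 and 24.54 RPKM in the WT libraries. The groups overlapped, with a mean of 26.2 ± 6.5 RPKM in the cKO group and 24.9 ± 1.07 RPKM in the WT group (two-sided exact permutation p = 1.0, where 3 against 3 cannot go below 0.1). The difference in means was 1.32 RPKM, and without cKO replicate 3 it was −2.44 RPKM.

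The claudin next in level was Cldn2 in the cKO group and Cldn15 in the WT group. Cldn15 and Cldn2 both form cation-permeable pores, and in the mouse intestine Cldn15 takes over from Cldn2 after birth. Cldn15 (chromosome 5, 136966616 to 136975858, GRCm38) fell to 0.22, 0.24 and 0.53 RPKM in the cKO libraries, against 1.56, 1.8 and 1.75 RPKM in the WT libraries, and the groups did not overlap. Its log2 difference was −1.03 ± 0.16 (SE; limma Benjamini-Hochberg adjusted p = 0.00169), a ratio of WT to cKO means of 5.16. With a mean of 1.02 RPKM over all libraries, Cldn15 passed the limit of 1 RPKM for the test through the WT group alone, so its call is no independent support for a fall. Cldn15 is a low gene, so the log2 difference depends on the pseudocount, and with 0.1 in place of 1 it was −2.14.

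Cldn2 (chromosome X, 139800828 to 139811386) had 1.52, 1.29 and 1.22 RPKM in the cKO libraries and 0.05, 0.03 and 0 RPKM in the WT libraries. Given its transcript length, these levels amount to about 58.4, 53.9 and 79.8 fragments in the cKO libraries and 2.1, 1.2 and 0 in the WT libraries. Its mean over all libraries, 0.685 RPKM, lay under the limit of 1 RPKM set for the test. In the same fit with a limit of 0.1 RPKM, a limit that Cldn2 met through the cKO group alone, its log2 difference was 1.19 ± 0.10 (limma adjusted p = 0.000165, Benjamini-Hochberg). Cldn2 made up 3.62 to 6.7% of the summed claudin RPKM in the cKO libraries and 0 to 0.21% in the WT libraries. For Cldn15 the shares were 0.97 to 1.57% in the cKO libraries and 6.5 to 7.13% in the WT libraries.

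A group of 7 claudins was not detected in any library. Cldn3, Cldn4 and Cldn8, which tighten epithelia, Cldn5 of endothelium, Cldn6 of embryonic epithelia, Cldn14, and Cldn16 of the kidney's thick ascending limb were listed at 0 in all 6 libraries. A count of 0 allows up to 3 fragments, which for Cldn4 is 0.0807 to 0.138 RPKM and for Cldn16, the shortest of them, 0.134 to 0.228 RPKM. These limits cover counting error only. Cldn7, which partners Epcam in epithelia, was at 0.44 RPKM in cKO replicate 2 and 0.4 RPKM in WT replicate 3, about 7 fragments each, and at 0 in the other 4 libraries.

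Trace levels appeared for further claudins. Cldn10, a pore-forming claudin of kidney and glands, had 0.3, 0.5 and 0.11 RPKM in the cKO libraries and 0 in each WT library. Cldn19, the partner of Cldn16 in the kidney and also found in myelin, had 0.04, 0.1 and 0.25 RPKM in the cKO libraries and 0 in each WT library. In cKO replicate 1 that amounts to about 2.1 fragments of Cldn19. Cldn1, a barrier claudin of skin, had 0.19, 0.13 and 0.61 RPKM in the cKO libraries and 0, 0.17 and 0.04 RPKM in the WT libraries, and the groups overlapped. Cldn23 was at 0 in each cKO library and at 0.08, 0.09 and 0.08 RPKM in the WT libraries, which is about 2 fragments per WT library. Cldn9, Cldn11 and Cldn18 reached at most 0.07 RPKM.

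Claudins that lie side by side in the genome did not share a level above these traces. Cldn3 and Cldn4, 39.3 kb apart on chromosome 5, were both at 0, and Cldn6 was at 0 beside Cldn9, 0.1 kb away on chromosome 17, which had 1 to 2 fragments in cKO replicates 1 and 3. Cldn16 was at 0 while Cldn1, 91.3 kb away on chromosome 16, was at traces.

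The other membrane proteins among the 31 genes were low, apart from F11r. F11r, or JAM-A, is an immunoglobulin-like adhesion molecule that recruits the PAR complex. It had 6.36, 10.62 and 2.64 RPKM in the cKO libraries and 3.61, 4.69 and 4.76 RPKM in the WT libraries. Replicates 1 and 2 of the cKO group lay above every WT library and replicate 3 below every one. The log2 difference was 0.35 ± 0.40 (SE; limma Benjamini-Hochberg adjusted p = 0.481), and without cKO replicate 3 it was 0.80 with an adjusted p of 0.0197.

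Occludin (Ocln), which gave the junction its first membrane marker, reached at most 0.04 RPKM in any library. Tricellulin (Marveld2), which seals the corners where 3 cells meet, lies 43.2 kb from Ocln on chromosome 13 and had 0.28, 0.15 and 0.2 RPKM in the cKO libraries and 0.03, 0 and 0.03 RPKM in the WT libraries. Marveld3 had 0.56, 0.03 and 0.04 RPKM in the cKO libraries and 0, 0 and 0.03 RPKM in the WT libraries, so only cKO replicate 1 rose above a few fragments.

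The scaffolds were lower in the cKO libraries where they were expressed. Paracingulin (Cgnl1; chromosome 9, 71626509 to 71771602, GRCm38) links tight and adherens junctions to microtubules. It fell to 3.39, 3.32 and 2.33 RPKM in the cKO libraries, against 25.8, 27.04 and 26.43 RPKM in the WT libraries. No cKO library approached the WT range, and replicate 3 was the lowest. The ratio of WT to cKO means was 8.77, with a log2 difference of −2.78 ± 0.13 (SE; limma Benjamini-Hochberg adjusted p = 1.38e-05), the largest of the tested members in size. Its paralog cingulin (Cgn), a marker of epithelial tight junctions, reached at most 0.13 RPKM.

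ZO-1 (Tjp1; chromosome 7, 65296165 to 65527781) also binds alpha-catenin at the adherens junctions of cells without tight junctions. It fell to 14.06, 13.35 and 16.65 RPKM in the cKO libraries, against 24.04, 23.14 and 20.65 RPKM in the WT libraries. The groups did not overlap, with a log2 difference of −0.59 ± 0.11 (SE; limma adjusted p = 0.00385, Benjamini-Hochberg) and a ratio of WT to cKO means of 1.54. Genes of chromosome 7 had a median log2 difference of 0.64, and with each chromosome centred on its median the difference of Tjp1 was −1.24. ZO-3 (Tjp3), a mainly epithelial paralog whose gene overlaps Apba3, reached at most 0.05 RPKM.

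Among the polarity genes, Llgl2 and Patj rose and Pard3 did not pass. Llgl2 (chromosome 11, 115824049 to 115855780, GRCm38), the epithelial member of the lethal giant larvae pair, marks the basolateral side with Scribble and Discs large. It rose to 21.56, 16.52 and 7.05 RPKM in the cKO libraries, against 2.93, 2.3 and 2.29 RPKM in the WT libraries. Every cKO library lay above the WT range, and replicate 3 lay nearest to it. The ratio of cKO to WT means was 6.00, and the log2 difference was 2.07 ± 0.37 (SE; limma Benjamini-Hochberg adjusted p = 0.00293).

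Patj (chromosome 4, 98395785 to 98719603), whose promoter is printed above, is a scaffold with many PDZ domains that joins the Crumbs complex to ZO-3 and claudins. It rose to 7.82, 8.22 and 4 RPKM in the cKO libraries, against 0.78, 1.93 and 0.98 RPKM in the WT libraries. The groups did not overlap, and again cKO replicate 3 lay nearest to the WT range. The log2 difference was 1.77 ± 0.30 (SE; adjusted p = 0.00244 by limma with Benjamini-Hochberg), a ratio of cKO to WT means of 5.43. Chromosomes 11 and 4 had medians of 0.42 and 0.44, and with each chromosome centred Llgl2 stood at 1.66 and Patj at 1.33.

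Pard3, the scaffold that recruits aPKC to junctions, had 15.25, 16.4 and 12.83 RPKM in the cKO libraries and 15.89, 15.63 and 14.4 RPKM in the WT libraries. The groups overlapped, and the log2 difference was −0.05 ± 0.11 (SE; limma adjusted p = 0.728, Benjamini-Hochberg). Pard6b, one of 3 Pard6 adaptors that couple Cdc42 to aPKC, had 0.78, 0.81 and 0.66 RPKM in the cKO libraries and 0.08, 0.11 and 0.02 RPKM in the WT libraries. Like Cldn2 it lay under the limit of 1 RPKM and met that of 0.1 RPKM through the cKO group alone, and in that fit its log2 difference was 0.71 ± 0.09 (limma adjusted p = 0.00102, Benjamini-Hochberg). Crb3, the Crumbs protein of epithelia, had 0.98, 0.6 and 0 RPKM in the cKO libraries and 0 in each WT library. Crb3 overlaps Slc25a23 and Dennd1c in GENCODE M21, and the sources used here do not state whether the counting used strand.

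**Figure D2:**
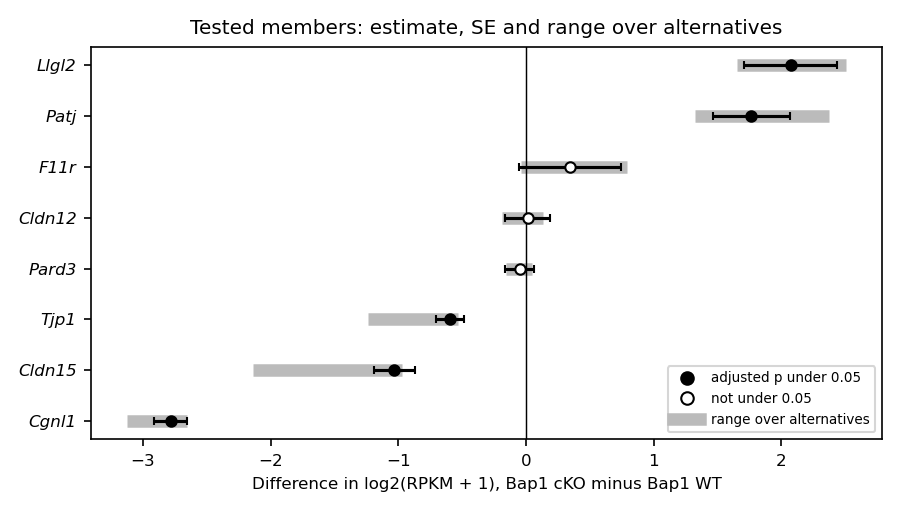
Difference in log2(RPKM + 1), cKO minus WT, of the 8 tested genes, with the SE as error bars, filled points for an adjusted p under 0.05 and grey bars for the range over all alternatives. Llgl2 and Patj lie to the right of 0 and Tjp1, Cldn15 and Cgnl1 to the left over the whole range, while the ranges of F11r, Cldn12 and Pard3 cross 0.

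In all, 8 of the 31 genes had a mean of at least 1 RPKM and entered the test. Of these 2 were higher, 3 lower and 3 not called, so that 62.5% were called, against 61.2% among all 12223 genes tested, with 34.7% higher and 26.5% lower. The share called among the tested members was thus close to that of all genes. Their median log2 difference was −0.02, against 0.09 over all genes. With a limit of 0.1 RPKM, 16 members were tested, of which 6 were higher and 3 lower. That is 56.2% called, against a background of 51.9%, with 29.1% higher and 22.8% lower. Most of the added genes passed this limit through the cKO group alone, so their count supports no direction. The added calls were Cldn2 and Pard6b, and near the threshold Cldn10 (limma adjusted p = 0.0432) and Marveld2 (0.0457), after Benjamini-Hochberg adjustment.

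Replicate 3 of the cKO group stood apart in these genes in both directions. It was also the deepest library, at about 23 megafragments against 13.5 and 14.7 for its fellows. The part of depth was not tested. Relative to the mean of cKO replicates 1 and 2 on the log2(RPKM + 1) scale, it was lower by −1.35 for F11r, −1.30 for Llgl2, −0.85 for Patj and −0.83 for Crb3. It was higher by 0.61 for Cldn12, 0.47 for Cldn1, 0.31 for Cldn15 and 0.26 for Tjp1. For Llgl2, Patj, Tjp1 and Cldn15 this placed it between its fellows and the WT group, and for F11r, Cldn12 and Cgnl1 it did not.

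The other genes of the pathway went both ways. Of 50 listed junction and polarity genes 48 were matched and 31 tested, of which 13 were higher, 9 lower and 9 not called. That is 71% called, against 61.2% of all genes tested (34.7% higher and 26.5% lower), with a median log2 difference of 0.12, against 0.09. Scaled by the median of ratios the split was 10 higher and 11 lower, and with each chromosome centred it was 10 higher and 14 lower. Lsr (angulin-1), which recruits tricellulin to the corners between cells, had 25.83, 33.16 and 6.97 RPKM in the cKO libraries and was listed at 0 in each WT library, so no fold is given (limma adjusted p = 0.000563). The virus receptor and junction adhesion molecule Cxadr had 38.38, 26.69 and 20.27 RPKM in the cKO libraries and 0.3, 0.52 and 0.06 RPKM in the WT libraries, a log2 difference of 4.48 ± 0.25 (SE; limma Benjamini-Hochberg adjusted p = 2.76e-05). Both genes passed the limit of 1 RPKM through the cKO group alone. Neither overlapped between the groups, and in both cKO replicate 3 was the lowest of its group.

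Of the genes that fell, Jam3, a relative of F11r, had 1.94, 0.96 and 5.56 RPKM in the cKO libraries and 9.64, 10.59 and 10.12 RPKM in the WT libraries (log2 difference −1.73 ± 0.41 SE, limma adjusted p = 0.0103). The angiomotin Amot, which binds Patj, had 3.21, 2.37 and 14.03 RPKM in the cKO libraries and 17.95, 18.33 and 17.56 RPKM in the WT libraries. Its call (−1.66 ± 0.53 SE, limma adjusted p = 0.0316) was lost without cKO replicate 1 or 2 or any WT replicate, with an adjusted p of 0.079 to 0.0984, and with no minimum level (0.0633).

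The partners of the polarity members were named after their values were seen, except for Mpdz and Pard6g. They differed in direction within the PAR and Scribble complexes, while those named of the Crumbs complex all rose. In the Crumbs complex, the Patj paralog Mpdz rose to 63.2, 63.25 and 39.43 RPKM in the cKO libraries, against 18.18, 18.35 and 17.16 RPKM in the WT libraries (log2 difference 1.54 ± 0.19 SE, limma adjusted p = 0.000565). Mpp5 (Pals1), the link between Crumbs and Patj, and Lin7c also rose, by 1.17 ± 0.13 and 0.50 ± 0.13 on the log2 scale (limma adjusted p = 0.000372 and 0.0134). With each chromosome centred Mpdz stood at 1.10, Mpp5 at 0.59 and Lin7c at 0.61. In the PAR complex the 3 Pard6 genes differed in direction. Pard6a rose by 1.40 ± 0.20 to 14.62, 21.66 and 13.35 RPKM in the cKO libraries, against 6.57, 5.02 and 5.02 RPKM in the WT libraries (limma adjusted p = 0.00108).

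Pard6g fell to 1.84, 1.99 and 3.69 RPKM in the cKO libraries, against 6.91, 6.82 and 7.67 RPKM in the WT libraries, with a log2 difference of −1.25 ± 0.21 (SE; limma adjusted p = 0.00223). The aPKC gene Prkci was not called, at −0.33 ± 0.14 (limma adjusted p = 0.0832), but passed in 4 alternatives: without cKO replicate 3 (0.00208), with sample weights (0.00778), scaled by the median of ratios (0.0331) and with each chromosome centred (0.0428). In the Scribble complex, beside the rise of Llgl2, its paralog Llgl1 stood 0.48 ± 0.10 and Scrib 0.45 ± 0.13 higher (limma adjusted p = 0.007 and 0.0221), and Dlg1 fell by −0.61 ± 0.10 (0.00217), or by −0.40 with each chromosome centred. The call of Llgl1 did not hold once each chromosome was centred on its median (0.06, limma adjusted p = 0.648). That of Scrib was lost in 6 alternatives, with limma adjusted p-values up to 0.0781. They were leaving out cKO replicate 1 or 2 or WT replicate 1 or 2, scaling by the median of ratios (0.0671) and quantile normalization (0.0506).

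**Figure D3:**
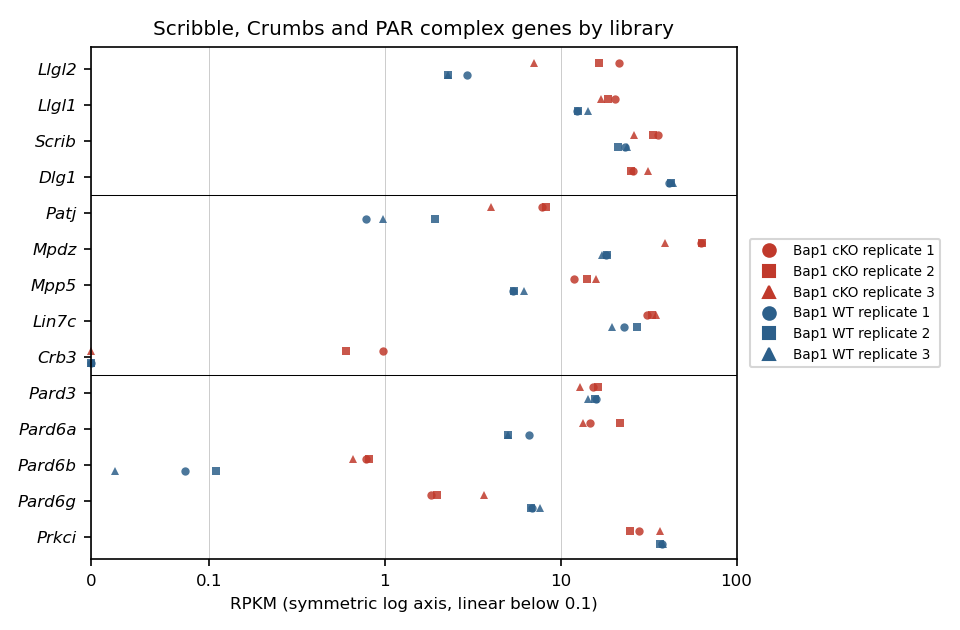
RPKM by library of Scribble complex genes (top block), Crumbs complex genes (middle) and PAR complex genes (bottom), with the cKO libraries (red) above the WT libraries (blue) in each row. Llgl2, Patj, Mpdz, Mpp5, Pard6a and Pard6b lie to the right in the cKO libraries, Dlg1 and Pard6g to the left, and Pard3 overlaps.

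Among 18 transcription factors known to act on claudin or other junction genes, 8 were tested, of which 1 was higher and 5 lower. That is 75% called, against 61.2% of all genes tested, of which 34.7% were higher and 26.5% lower. The zinc finger repressors Snai1, Snai2, Zeb1 and Zeb2 were lower in the cKO libraries. Snai1 fell to 1.09, 0.76 and 7.24 RPKM in the cKO libraries, against 28.96, 20.89 and 25.66 RPKM in the WT libraries (log2 difference −3.06 ± 0.57 SE, limma adjusted p = 0.00356). Snai2 had 13.64, 14.33 and 23.67 RPKM in the cKO libraries and 46.36, 48.49 and 43.23 RPKM in the WT libraries, a log2 difference of −1.41 ± 0.20 (SE; limma adjusted p = 0.00119). Zeb1 and Zeb2, named after their values were seen, fell by −0.86 ± 0.25 and −1.08 ± 0.11 (limma adjusted p = 0.0212 and 0.000238), and the call of Zeb1 was lost in 5 alternatives, with an adjusted p of up to 0.0712. They were leaving out cKO replicate 1 or 2 or WT replicate 2 or 3, and centring each chromosome on its median (limma adjusted p = 0.0664).

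Of the activators of epithelial junction genes, Ehf was the one called higher. Ehf, an ETS factor of epithelia, rose to 7.73, 19.19 and 2.97 RPKM in the cKO libraries, against 0, 0.02 and 0.06 RPKM in the WT libraries (log2 difference 3.11 ± 0.54 SE, limma adjusted p = 0.00274). It passed the limit of 1 RPKM through the cKO group alone. Grhl2 and Ovol2 were likewise named after their values were seen. Grhl2, which activates Cldn4 and E-cadherin in mouse epithelia, was at 0 in all 6 libraries. Ovol2 had 0.94, 0.5 and 0.19 RPKM in the cKO libraries and 0 in each WT library.

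**Figure D4:**
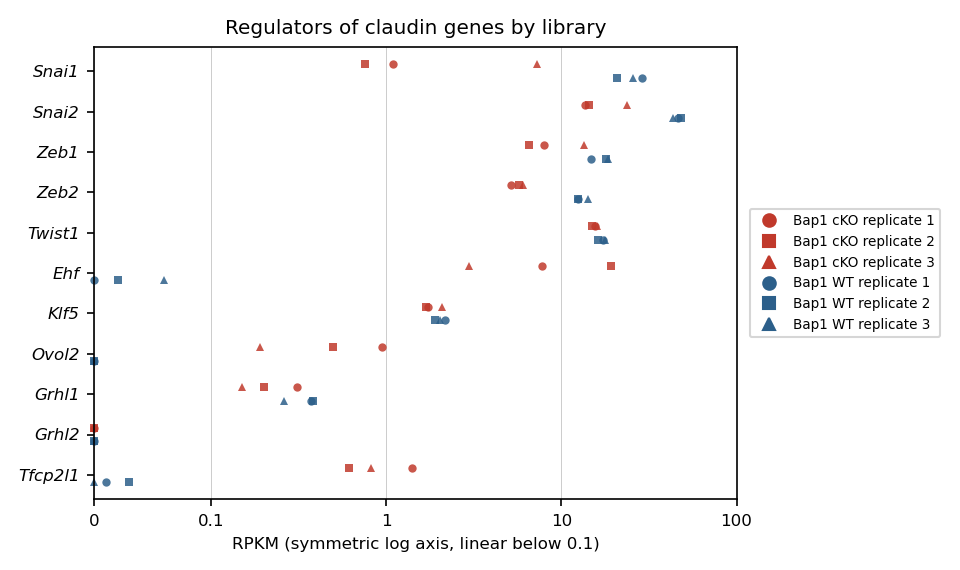
RPKM by library of 11 of the 18 regulators of claudin genes, with the cKO libraries (red) above the WT libraries (blue) in each row. The 4 repressors at the top lie to the left in the cKO libraries, with cKO replicate 3 nearest to the WT group for each of them, Ehf lies to the right and Grhl2 is at 0 throughout.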

How the data were processed

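The authors deposited RPKM values with 2 decimals, in 1 column per library. Per the submitters' processing notes, the tools were cutadapt 2.8, STAR 2.7.1a and RSEM 1.3.1 with the genome build GRCm38; the annotation is not given in the sources used here. Per the labels' protocols, libraries were stranded, polyA-selected and read as 151 bp pairs. Symbols came from GENCODE M21. Depth was estimated from single-transcript genes of 800 to 3500 bp, less 200 bp, where 86.7 to 95.6% of low values were whole fragments to within 0.2 (40% by chance). Fragments per gene use its longest transcript.

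Groups were compared two-sided on log2(RPKM + 1) with limma 3.58.1 (R 4.3.3; variance trend; mean over the 6 libraries of 1 RPKM or more), with Benjamini-Hochberg adjustment over all genes tested and calls under 0.05. The fit was also run on simulated data, with independent noise and a far smaller share of changed genes than was called here. That run does not check the error rate of the calls in these data. Every member is named; of the wider list and the regulators, up to 3 called genes per direction with the largest log2 differences, apart from a few genes that are not reported here. The members and lists were chosen with earlier results of these data known. Tables were made with pandas 2.3.3 and numpy 2.4.6 and figures with matplotlib 3.10.9, in Python 3.11.15. Alternatives changed the pseudocount, minimum, scaling, variance model, weights, block, chromosome centring and libraries used.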

Additional observations from a re-analysis of the deposited data

How the results depend on the processing

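The calls of Llgl2, Patj, Cldn15, Tjp1 and Cgnl1 kept their direction and stayed under 0.05 in every alternative that tested them. Cldn15 lay under the minimum when that was 5 RPKM or a WT library was left out. Of 139 gene-by-alternative values of the tested members, 138 stayed on their side of the threshold; the other was F11r without cKO replicate 3. The count of members higher in the cKO libraries was 6 with a minimum of 0.1 RPKM or none and 1 with 5 RPKM, because more or fewer genes were tested. It ran from 2 to 3 with a library left out, and the count lower from 2 to 3. The wider list had 14 genes lower with each chromosome centred; the cause was not tested. Regulators higher in the cKO libraries numbered 3 with a minimum of 0.1 RPKM or none and 0 with 5 RPKM. At 5 RPKM, 4 members were expressed in each group. The difference in summed claudin RPKM was −0.68 scaled by the median of ratios, and −2.44 to 3.33 with a library left out; the cause was not tested. Deviations of same-numbered libraries from their group means had an r across genes of −0.017, 0.05 and −0.019. With 3 libraries per group these r values cannot exclude a pairing, and the labels used here state none. With the replicate block 2 members were higher and 3 lower, as without it. Over all genes 3811 were then higher and 2938 lower, against 4237 and 3239. Depth limits the low members: levels under about 3 fragments cannot be told from 0.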
